A study of Homo sapiens with 12 samples.

Results

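The genes described here encode subunits of Polycomb repressive complex PRC1: the catalytic RING proteins RING1 and RNF2, the PCGF partners BMI1 and PCGF2, the chromobox proteins CBX2, CBX6, CBX7 and CBX8, and the Polyhomeotic protein PHC2. They were chosen by name, as 9 of the 29972 gene rows in each of 2 deposited tables, and all 9 had a test in both tables. PRC1 is a histone ubiquitin ligase. Its RING and PCGF subunits together place ubiquitin on histone H2A. In the canonical form of the complex a CBX subunit binds H3 trimethylated at lysine 27, the mark written by PRC2, and a PHC subunit links complexes to one another through its SAM domain. PHF19, the gene knocked down in these cells, is a Polycomb-like subunit of PRC2, and BMI1 is a well-known oncogene in breast and other cancers.

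The cells were MDA-MB-436 and BoM-1833, human triple-negative breast cancer cell lines whose messenger RNA was sequenced. BoM-1833 is a bone-tropic derivative of a further line, MDA-MB-231, and not of MDA-MB-436, so the lines differ in origin as well as in tropism. Control cells of each line received a pool of non-targeting small interfering RNAs (siNT) and treated cells received an equal mix of 2 siRNAs against PHF19 (siPHF19). Both groups were reverse transfected at 5 nM siRNA in total and harvested after 72 h, and the siNT and siPHF19 reagents came from different suppliers. There were 3 libraries in each of the 4 groups, 12 in all, with 15.2 to 24.0 M reads assigned to genes per MDA-MB-436 library, against 13.7 to 21.3 M per BoM-1833 library. Depth followed treatment in BoM-1833, with 17.6 to 21.3 M in siNT and 13.7 to 16.6 M in siPHF19. The MDA-MB-436 groups had equal means of 18.9 M. The labels do not say whether the replicates were separate cultures, so each p-value measures the spread between these libraries, which may be technical. PHF19 itself had normalized counts (reads divided by the size factor of the library) of 2942, 3354 and 3763 in the MDA-MB-436 siNT libraries against 340.1, 326 and 315 in siPHF19, and of 1711, 1684 and 1669 in the BoM-1833 siNT libraries against 181, 201 and 173. Its siPHF19 mean was 9.75% of the siNT mean in the former line, 10.9% in the latter. The receptor genes ESR1 and PGR, low by definition in triple-negative cells, had mean normalized counts under 10 in every group, whereas ERBB2 had means of 1079 and 1080.1 in the lines and was not called in either.

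BMI1 and CBX6 were the members that passed the test in MDA-MB-436, both of them higher after siPHF19, and their promoters are shown for that reason. RefSeq transcription starts of GRCh38.p14 were matched for 7 of the 9 members. Capitals mark each match, on either strand, to the GC box GGGCGG, and to CACGTGAC, an E-box CACGTG with the 2 bases that follow it. The BMI1 stretch is chr10:22320849-22321098 on the plus strand, the 250 bases before a BMI1 start, and holds no annotated exon but lies within the span of the read-through gene COMMD3-BMI1 described later. The CBX6 stretch is chr22:38872315-38872466 on the minus strand, the 152 bases of that window that lie outside annotated exons. Both are written 5′ to 3′.
BMI1: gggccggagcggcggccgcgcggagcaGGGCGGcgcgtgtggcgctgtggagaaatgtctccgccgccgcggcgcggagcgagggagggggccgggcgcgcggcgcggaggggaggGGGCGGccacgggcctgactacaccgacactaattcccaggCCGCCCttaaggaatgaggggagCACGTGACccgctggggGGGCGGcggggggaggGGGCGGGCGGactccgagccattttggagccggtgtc
CBX6: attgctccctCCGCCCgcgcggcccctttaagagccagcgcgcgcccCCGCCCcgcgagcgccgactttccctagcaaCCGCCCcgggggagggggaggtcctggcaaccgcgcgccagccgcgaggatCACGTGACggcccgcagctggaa
The E-box begins 70 bases before the start in BMI1 and 121 bases before it in CBX6. CACGTG was found in 6.3% of all 35116 promoter windows of 250 bases, and CACGTGAC, a string chosen after the sequences had been seen, in 2.2%. The same string also occurred in a PHC2 window, and PHC2 was not called in either line. The GC box was found in 42.6% of all windows, CCAAT in 32.0% and TATAAA in 10.7%. Neither the BMI1 nor the CBX6 window shown held CCAAT or TATAAA on either strand. These windows were rich in G and C, 76.8% in BMI1 and 79.2% in CBX6 against a median of 58.0% over all windows. A match describes these letters and does not show that a factor binds there.

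The first question was which PRC1 subunits changed in abundance when PHF19 was depleted. In MDA-MB-436, 2 of the 9 members passed an adjusted p of 0.05 in the authors' deposited DESeq2 Wald test, BMI1 and CBX6, both higher, while 22.1% of the 14243 genes tested in that line were called (10.5% higher, 11.5% lower). The members' share is thus close to that of all genes. In BoM-1833 1 of 9, BMI1, was called, against 10.9% of the 12906 genes tested (5.21% higher, 5.72% lower). No member was called lower in either line. The 3 siNT and 3 siPHF19 libraries did not overlap for 4 members in MDA-MB-436 (CBX6, CBX7 and BMI1 higher, CBX8 lower) and for 2 in BoM-1833 (BMI1 and CBX6 higher), where 42.2% and 31.0% of the tested genes, respectively, did not overlap. The median absolute log2 fold change of the members was 0.28 in MDA-MB-436, against 0.18 over all tested genes, and 0.03 in BoM-1833, against 0.12.

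**Figure D1:**
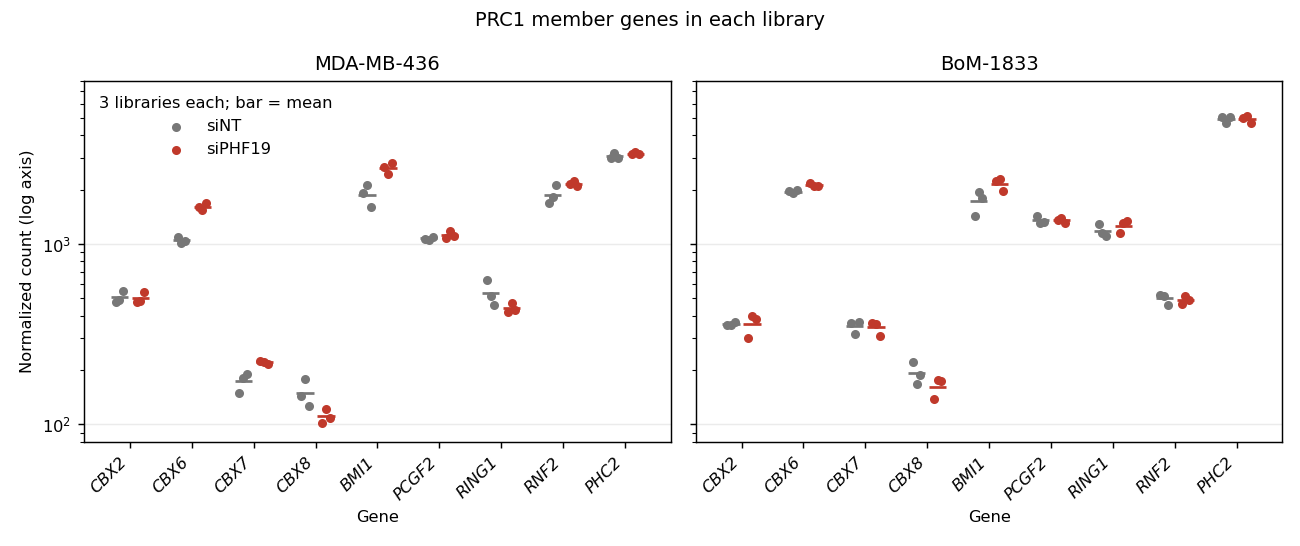
Normalized counts (log axis) of the 9 members in each of the 12 libraries, MDA-MB-436 on the left and BoM-1833 on the right. Grey points are siNT and red points siPHF19 libraries, bars are means of 3 libraries, and CBX6 and BMI1 separate in both lines.

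Among the catalytic subunits, RNF2 (also called RING1B), the main E3 ligase of the complex in many cells, had normalized counts of 1684, 1816 and 2118 in the MDA-MB-436 siNT libraries and 2149, 2224 and 2095 in the siPHF19 libraries. The lowest siPHF19 library lay just below the highest siNT library. RNF2 has a log2 fold change of 0.20 in the authors' deposited table (SE 0.09, DESeq2 adjusted p = 0.102). Its paralog RING1 had 634, 514 and 457 in siNT and 421, 469 and 429.9 in siPHF19, with 1 siPHF19 library inside the siNT range. The deposited log2 fold change was -0.28 (SE 0.13, DESeq2 adjusted p = 0.115). Each of these values had an unadjusted p under 0.05 in the DESeq2 test, but neither passed adjustment over all genes.

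The siNT library labelled replicate 3 of MDA-MB-436 bears on both RING genes, since it had the highest RNF2 and the lowest RING1 of the siNT libraries. When it was left out and DESeq2 was refitted, 5 members were called in place of 2, the added ones being RNF2 (log2 fold change 0.30, adjusted p = 8.94e-04), RING1 (-0.38, adjusted p = 0.0168) and CBX8 (-0.54, adjusted p = 0.0497). The same refit called 3801 genes in all in place of 3143, so the rise in calls was not limited to the members. Leaving out siNT replicate 1 instead made both RING changes smaller in a DESeq2 refit. RNF2 was then 0.14 (adjusted p = 0.223) and RING1 -0.14 (adjusted p = 0.476), neither called. In BoM-1833 RNF2 had 525, 518 and 459.8 in siNT and 466, 517 and 490.1 in siPHF19, and RING1 had 1296, 1157 and 1105 in siNT and 1144, 1313 and 1336 in siPHF19. The groups overlapped for both genes. The authors' deposited log2 fold changes there were -0.03 (SE 0.11) for RNF2 and 0.09 (SE 0.09) for RING1. RNF2 has an annotated pseudogene copy, RNF2P1, and reads shared with it could be assigned to either.

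BMI1, the PCGF subunit that stimulates the ligase activity of the RING proteins, had normalized counts of 1906, 2121 and 1597 in the MDA-MB-436 siNT libraries and 2660.1, 2428 and 2794 after siPHF19. Every siPHF19 library exceeded every siNT library. By the authors' deposited table BMI1 rose 1.40-fold, a log2 fold change of 0.48 (SE 0.11, DESeq2 adjusted p = 8.08e-05), and stayed past the threshold when any 1 of the 6 libraries was left out (0.38 to 0.58). In BoM-1833 its counts were 1432, 1943 and 1808 in siNT and 2222, 2279.9 and 1956 in siPHF19. The groups again did not overlap, but the nearest pair of libraries was close. BMI1 rose 1.25-fold there in the authors' deposited table (log2 fold change 0.32, SE 0.10, DESeq2 adjusted p = 0.0166). That call is close to the threshold: edgeR with TMM scaling gave 0.32 with an adjusted p of 0.0610, and leaving out siPHF19 replicate 2 gave 0.28 with an adjusted p of 0.195.

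BMI1 shares sequence with a read-through gene, COMMD3-BMI1, which joins it to the neighbouring gene COMMD3 on chromosome 10. In GENCODE 29, BMI1 spans 22321211 to 22331484 and COMMD3-BMI1 spans 22316388 to 22329542, both on the plus strand. They have 1000 exonic bases in common, 23.3% of the 4283 exonic bases of BMI1, and 100% of the 1904 exonic bases of COMMD3-BMI1 lie within exons of BMI1 or COMMD3. How the authors divided reads between such genes is not given in the sources used here.

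Counts assigned to COMMD3-BMI1 were 746, 357 and 937 in the MDA-MB-436 siNT libraries and 528, 754 and 264 after siPHF19. In BoM-1833 they were 1008, 716 and 587 in siNT and 440.0, 446 and 804 in siPHF19. In each group the library with the most COMMD3-BMI1 had the least BMI1. The read-through gene held 8.64% to 37.0% of the counts of both genes in MDA-MB-436 libraries, against 16.4% to 41.3% in those of BoM-1833, and over the 12 libraries, each centred on its line, log2 counts of both genes had a Pearson's r of -0.73 (a description, since the libraries share the counting of the same bases).

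The sum of both genes varied less than either. It was 2651, 2478 and 2534 in MDA-MB-436 siNT and 3188, 3181 and 3058 in siPHF19, and 2440.2, 2659 and 2394.5 in BoM-1833 siNT and 2662, 2726 and 2759 in siPHF19. The groups did not overlap in either line, although the nearest libraries in BoM-1833 differ by a few counts. With COMMD3-BMI1 added to BMI1 before a DESeq2 fit, an alternative chosen after the data had been seen, the log2 fold change was 0.30 (SE 0.07, adjusted p = 8.51e-05) in MDA-MB-436, smaller than for BMI1 alone but still past the threshold, and it stayed there without any 1 library (0.28 to 0.33). In BoM-1833 the sum gave 0.12 (SE 0.07, adjusted p = 0.286), so the call of BMI1 in that line was lost. Only 1000 of the 1904 exonic bases of COMMD3-BMI1 are shared with BMI1, and the rest lie in COMMD3. The sum can thus include reads from COMMD3 exons and is not a measure of BMI1 alone. COMMD3 itself, an endosomal trafficking gene, was lower in the siPHF19 libraries of MDA-MB-436 (log2 fold change -0.32, SE 0.12, DESeq2 adjusted p = 0.0392) and not called in BoM-1833 (-0.07, SE 0.09, DESeq2 adjusted p = 0.763) in the authors' deposited table.

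**Figure D2:**
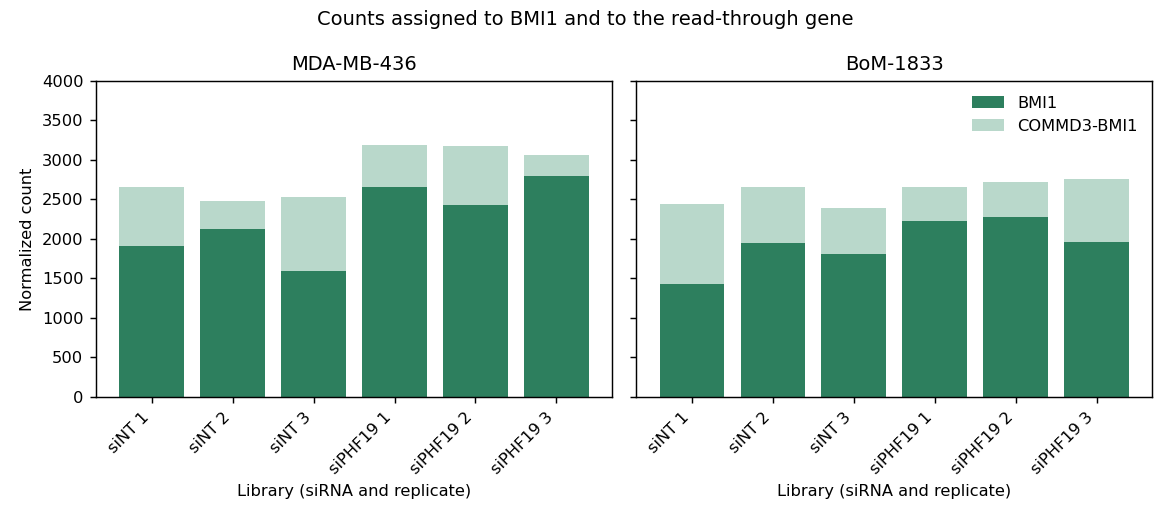
Normalized counts (linear axis) assigned to BMI1 (dark) and to the read-through gene COMMD3-BMI1 (light), stacked, in each of the 12 libraries. The stacks of the siPHF19 libraries stand above those of siNT by a clear margin in MDA-MB-436 (3058 to 3188 against 2478 to 2651) and by a narrow one in BoM-1833.

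PCGF2 (MEL-18), the paralog that can take the place of BMI1 in canonical PRC1, had 1071, 1058 and 1097 in MDA-MB-436 siNT and 1081, 1178 and 1111 in siPHF19. In BoM-1833 it had 1437, 1307 and 1326 in siNT and 1367, 1400.0 and 1314 in siPHF19. The groups overlapped in both lines, and the authors' deposited log2 fold changes of 0.07 (SE 0.08) and 0.0035 (SE 0.08) were within their standard errors of 0. By the intervals of 95% around them, a change of PCGF2 above 0.22 on the log2 scale in MDA-MB-436 or above 0.15 in BoM-1833 lies outside what these libraries give. PCGF2 overlaps an antisense gene and CISD3 in the annotation.

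CBX6, a chromobox subunit whose chromodomain is a weaker reader of the PRC2 mark than that of CBX7, had the largest log2 fold change of the members in MDA-MB-436. Its counts were 1098, 1015 and 1035 in siNT and 1606, 1535 and 1689 in siPHF19. The lowest treated library thus exceeded the highest control. CBX6 rose 1.53-fold in the authors' deposited table, with a log2 fold change of 0.62 (SE 0.08, DESeq2 adjusted p = 1.25e-12). In BoM-1833 the counts were 1954, 1907 and 1979.5 in siNT and 2179, 2108 and 2099.8 in siPHF19, which also do not overlap, and the deposited log2 fold change was 0.13 (SE 0.06, DESeq2 adjusted p = 0.224). Counts of CBX6 varied little between replicates in either line, with SDs of 43.6 and 36.8 in the siNT groups.

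CBX7, the chromobox protein known for repressing the CDKN2A locus, had 149.5, 181 and 191 in MDA-MB-436 siNT and 226, 221 and 218 in siPHF19. The groups did not overlap, and the log2 fold change in the authors' deposited table was 0.35 (SE 0.15, DESeq2 adjusted p = 0.0834). Here the tool decides the call, since edgeR with TMM scaling gave 0.35 with an adjusted p of 0.0416 and limma on log2 counts with a pseudocount of 1 gave 0.36 with an adjusted p of 0.0442. In BoM-1833 CBX7 had 363, 316 and 368 in siNT and 365, 362 and 309.9 in siPHF19, a deposited log2 fold change of -0.01 (SE 0.13). The groups overlapped almost fully.

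CBX8 was the only member besides RING1 with a deposited log2 fold change below -0.1 in MDA-MB-436. It had 143, 179 and 127 in siNT and 102, 122 and 109 in siPHF19, without overlap, and a log2 fold change in the authors' deposited table of -0.44 (SE 0.20, DESeq2 adjusted p = 0.0935). In BoM-1833 it had 222, 167 and 188 in siNT and 138, 176 and 173 in siPHF19, with a deposited log2 fold change of -0.25 (SE 0.17, DESeq2 adjusted p = 0.444), and 2 siPHF19 libraries lay within the siNT range. CBX8 had the fewest reads of the members, from 94 to 280 per library, and counting error limits it most.

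CBX2, whose product compacts nucleosomes, stayed within the spread of its replicates. It had 479, 488 and 550.3 in MDA-MB-436 siNT and 478, 485 and 545 in siPHF19, and 356, 355 and 368 in BoM-1833 siNT and 303, 399.8 and 384 in siPHF19. The deposited log2 fold changes were -0.0078 (SE 0.11) and 0.0067 (SE 0.13). CBX2 and CBX8 are neighbours 4.1 kb apart on chromosome 17 (79778132 to 79787983 on the plus strand and 79792132 to 79801683 on the minus strand). CBX6 and CBX7 are 247.9 kb apart on chromosome 22.

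PHC2, the Polyhomeotic subunit, had 3006, 3178 and 2999 in MDA-MB-436 siNT and 3134, 3219 and 3148 in siPHF19, and 5059, 4672 and 5085 in BoM-1833 siNT and 5010.1, 5133 and 4709 in siPHF19. The groups overlapped in both lines. With up to 6373 reads per library it was also the most deeply covered member, and its deposited log2 fold changes of 0.05 (SE 0.06) and 0.0036 (SE 0.06) have 95% intervals of -0.08 to 0.17 and -0.12 to 0.13.

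**Figure D3:**
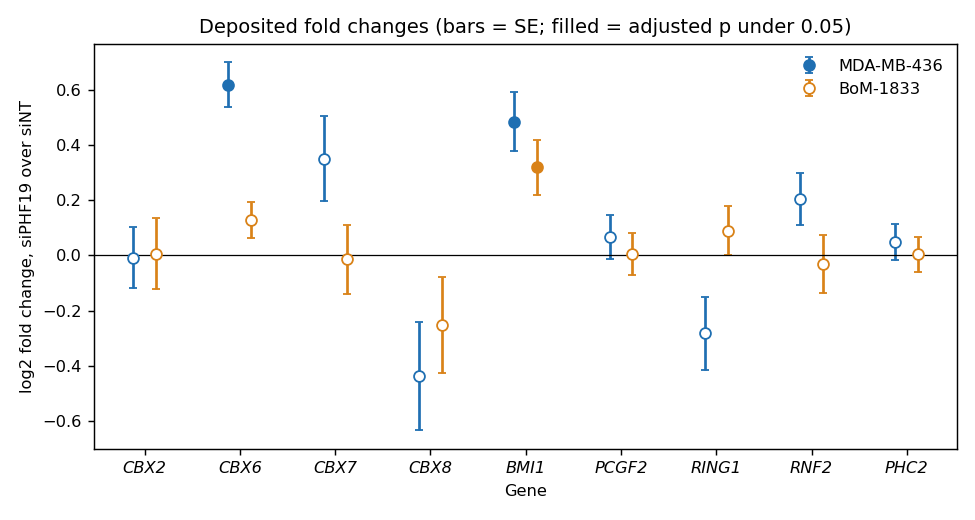
Log2 fold changes (siPHF19 over siNT, from the authors' deposited table) of the 9 members, with bars of 1 standard error on either side. Blue is MDA-MB-436 and orange BoM-1833, and filled symbols mark an adjusted p under 0.05, which are CBX6 (0.62) and BMI1 (0.48) in MDA-MB-436 and BMI1 (0.32) in BoM-1833.

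The second question was whether the lines responded differently. CBX6 was the only member whose response differed between lines, at -0.49 (BoM-1833 minus MDA-MB-436, log2 scale, SE 0.10, 95% interval -0.69 to -0.29, adjusted p = 2.01e-04 by a z test on the authors' deposited values), where 4.89% of the 12290 genes tested in both lines differed. An interaction term gave the same size, -0.49 in DESeq2 (adjusted p = 6.03e-07) and -0.49 in edgeR (adjusted p = 0.00185). RING1 had the next largest difference in the other direction, 0.37 (SE 0.16, 95% interval 0.06 to 0.69, z test adjusted p = 0.197). Its interval excludes 0, but the difference did not pass adjustment over all genes. RING1 passed only when siNT replicate 3 of MDA-MB-436 was left out (0.47, adjusted p = 0.0383). CBX7 differed by -0.36 (SE 0.20, z test adjusted p = 0.357) and RNF2 by -0.24 (SE 0.14, adjusted p = 0.422), with intervals that include 0. BMI1 was called in MDA-MB-436 and, without the read-through counts, in BoM-1833, and its difference of -0.17 (SE 0.15, z test adjusted p = 0.640, 95% interval -0.45 to 0.12) did not pass, and its interval includes 0.

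Levels of the members were next set side by side as reads per kilobase of exonic length, scaled to the depth of each library (RPKM). Each line was normalized in a table of its own, so values of the lines are given beside each other without a test. In MDA-MB-436 siNT the order was PHC2 (32.8 ± 1.40 RPKM, SD, n = 3), RNF2 (24.5 ± 3.23), BMI1 (23.3 ± 3.27), PCGF2 (16.3 ± 0.46), RING1 (15.7 ± 2.38), CBX6 (6.96 ± 0.18), CBX2 (4.74 ± 0.42), CBX8 (1.92 ± 0.35) and CBX7 (1.24 ± 0.17). The libraries of neighbours in that order overlapped for RNF2 with BMI1 and for PCGF2 with RING1. The RING, PCGF and PHC subunits were thus all above the CBX genes.

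In BoM-1833 siNT the order was PHC2 (59.3 ± 2.16 RPKM), RING1 (39.0 ± 3.10), BMI1 (24.1 ± 3.90), PCGF2 (23.1 ± 1.03), CBX6 (14.5 ± 0.15), RNF2 (7.35 ± 0.55), CBX2 (3.78 ± 0.07), CBX7 (2.79 ± 0.20) and CBX8 (2.76 ± 0.38). BMI1 overlapped PCGF2, and CBX7 overlapped CBX8. The RING genes change places between the lines: mean RPKM of RNF2 was 3.34-fold higher in MDA-MB-436, and that of RING1 was 2.49-fold higher in BoM-1833. CBX7 and CBX6 were 2.25-fold and 2.08-fold higher in BoM-1833. BMI1 was the only member whose siNT libraries overlapped between lines. In bulk samples like these, fewer cells that express a gene and less RNA per cell cannot be told apart.

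Paralogs of a subunit compete for the same place in the complex, so each was also expressed as a share of the RPKM of its group, the 4 CBX members, BMI1 with PCGF2, and RING1 with RNF2, per library. CBX6 held 46.9% ± 2.42 (SD, n = 3) of the CBX group in MDA-MB-436 siNT and 58.1% ± 1.01 in siPHF19. CBX2 held 31.9% ± 2.14 and 25.6% ± 0.88, and CBX8 12.9% ± 2.31 and 7.74% ± 0.85. The 3 siNT and 3 siPHF19 libraries did not overlap for any of these 3, while CBX7 kept 8.34% ± 0.94 and 8.61% ± 0.47. Shares in a group add up to a fixed total, so these are not independent results. The RPKM of CBX2 itself was 4.74 ± 0.42 in MDA-MB-436 siNT and 4.78 ± 0.34 in siPHF19, so only its share was lower. In BoM-1833 CBX6 held 60.8% ± 1.23 and 64.1% ± 2.44, which overlap, and CBX8 held 11.6% ± 1.35 and 9.40% ± 1.08, which do not. The nearest CBX8 libraries there were close, at 10.5% in siNT and 10.1% in siPHF19.

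In MDA-MB-436 RNF2 held 60.9% ± 6.58 of the RING pair in siNT and 68.6% ± 0.80 in siPHF19, with no overlap but with nearest libraries at 67.4% and 67.9%. In BoM-1833 it held 15.9% ± 0.70 and 14.8% ± 0.66, with overlap. BMI1 held 58.6% ± 3.93 of the PCGF pair in MDA-MB-436 siNT and 65.7% ± 2.48 in siPHF19, and 50.9% ± 5.24 and 56.4% ± 1.27 in BoM-1833, without overlap in either line. The margins were narrow. The nearest siNT and siPHF19 libraries had 62.2% and 62.8% in MDA-MB-436, and 54.93% and 54.95% in BoM-1833. With COMMD3-BMI1 counted as BMI1 the shares were 66.1% ± 0.82 and 69.6% ± 0.97 in MDA-MB-436, still without overlap, and 60.1% ± 2.19 and 62.1% ± 1.02 in BoM-1833, which overlap. Such summed shares kept the exonic length of BMI1, and their counts can include reads from COMMD3 exons. All paralog shares are a description and were not tested. They depend on the length used, as coding length put RNF2 at 80.7% in MDA-MB-436 siNT and 33.8% in BoM-1833 siNT.

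**Figure D4:**
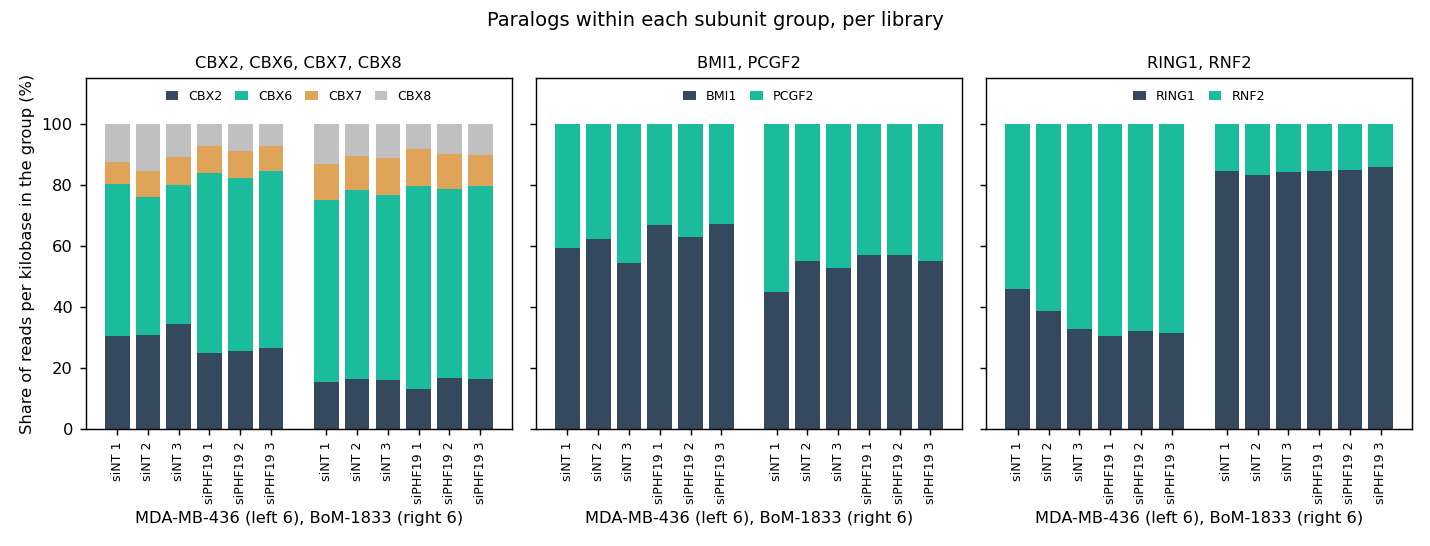
Share (%) of each paralog in the summed reads per kilobase of its subunit group, per library, for CBX2, CBX6, CBX7 and CBX8 (left), BMI1 and PCGF2 (middle) and RING1 and RNF2 (right). The left 6 bars of each panel are MDA-MB-436 and the right 6 BoM-1833, and RNF2 holds most of the RING pair in MDA-MB-436 but 14.1% to 16.7% of it in BoM-1833.

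The rest of the PRC1 machinery was described by 4 further lists with 45 genes: other canonical subunits, variant PRC1 subunits, the enzymes and partners that remove ubiquitin from H2A, and the heterochromatin chromobox genes CBX1, CBX3 and CBX5. Of these, 44 were tested in each line. In MDA-MB-436, 4 rose and 3 fell, and 37 were not called, with a median log2 fold change of 0.07 against -0.0022 over all tested genes. In BoM-1833, 3 rose, none fell and 41 were not called, with a median of 0.02 against -0.0035. As shares, 15.9% and 6.82% of the list genes were called, against 22.1% and 10.9% of all tested genes.

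Of the 5 other canonical subunits, SCML2, a Polycomb protein with MBT repeats, was the only one called, and it was called in both lines. It had 860.1, 999 and 1324 in MDA-MB-436 siNT and 2046, 1947 and 1900.0 in siPHF19. By the authors' deposited table it rose 1.85-fold there (log2 fold change 0.89, SE 0.13, DESeq2 adjusted p = 5.86e-10), above the value of any of the 9 members. In BoM-1833 SCML2 had 169, 165 and 132 in siNT and 234, 199 and 252 in siPHF19, a 1.47-fold rise (log2 fold change 0.56, SE 0.17, DESeq2 adjusted p = 0.0104, authors' deposited table). That call was lost when siNT replicate 3, siPHF19 replicate 1 or siPHF19 replicate 3 of BoM-1833 was left out. The groups did not overlap in either line, and the difference between lines, -0.33 (SE 0.21, z test adjusted p = 0.460), did not pass. SCML2 has annotated pseudogene copies, SCML2P1 and SCML2P2.

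Of 26 variant PRC1 genes, MDA-MB-436 had 2 higher (DCAF7 and RYBP) and 2 lower (PCGF6 and HDAC2), and BoM-1833 had 2 higher (PCGF3 and TFDP1). DCAF7, a WD-repeat partner of the variant complexes built on PCGF3 and PCGF5, had 2123, 2219 and 2397 in MDA-MB-436 siNT and 3000.2, 2868 and 2805 in siPHF19 (authors' deposited log2 fold change 0.36, SE 0.07, DESeq2 adjusted p = 1.8e-05). PCGF3 had 866, 953 and 870.0 in BoM-1833 siNT and 1087, 1017 and 1073 in siPHF19 (authors' deposited log2 fold change 0.24, SE 0.08, DESeq2 adjusted p = 0.0370). TFDP1, the E2F dimerization partner, had 2942, 2944 and 2898 in BoM-1833 siNT and 3279.8, 3393 and 3276 in siPHF19 (authors' deposited log2 fold change 0.18, SE 0.06, DESeq2 adjusted p = 0.0256). The groups did not overlap for any of these 3 in the line named.

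Of 10 tested deubiquitination genes, MBD6 rose and USP16 fell in MDA-MB-436, and none was called in BoM-1833. USP16, a deubiquitinase of H2A, had 2951, 2529.8 and 2414 in MDA-MB-436 siNT and 1986, 2075 and 2027 in siPHF19, all lower (authors' deposited log2 fold change -0.37, SE 0.09, DESeq2 adjusted p = 2.86e-04). None of the 3 heterochromatin chromobox genes was called in either line. MDA-MB-436 siNT replicate 3 weighs on these lists too, since 15 list genes were called in that line without it in place of 7. Calls over all genes rose as well, to 3801 from 3143. In BoM-1833 the 3 calls (SCML2, PCGF3 and TFDP1) fell to 0 when siNT replicate 3, siPHF19 replicate 1 or siPHF19 replicate 3 was left out. Calls over all genes in those refits were 1049, 886 and 832, against 1411.

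**Figure D5:**
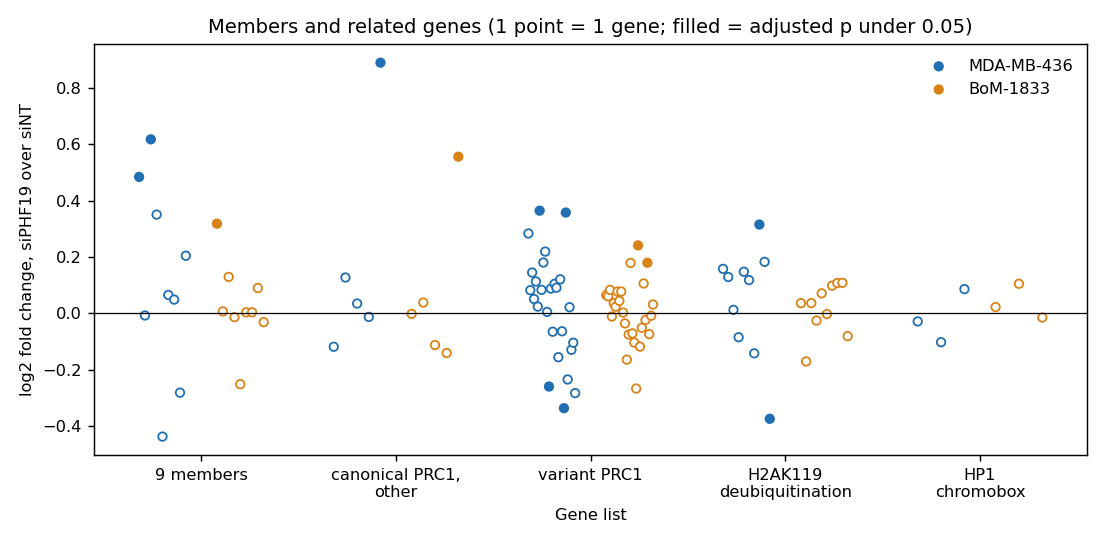
Log2 fold changes (siPHF19 over siNT, from the authors' deposited table) of the 9 members and the 44 tested genes of 4 related lists, 1 point per gene, blue for MDA-MB-436 and orange for BoM-1833. Filled points have an adjusted p under 0.05; the highest point in each line is SCML2 (0.89 and 0.56).

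The genes whose counts followed BMI1 most closely were sought among the 9835 genes whose mean normalized count reached 100 in each line, by Pearson's r of log2 counts centred on each line over the 12 libraries. They were KIF21A, a kinesin (r = 0.95), SORT1, the sorting receptor sortilin (r = 0.93), and TCF7L2, a transcription factor of the Wnt pathway (r = 0.93). By the authors' deposited table all 3 rose in MDA-MB-436, by 0.29, 0.24 and 0.27 on the log2 scale (DESeq2 adjusted p = 0.00348, 0.00570 and 0.0124), and none was called in BoM-1833. The points share the treatment and the library, so these correlations are a description. At -0.73, COMMD3-BMI1 lay near the other end, with 617 genes below it.

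Some markers of cell state also changed after siPHF19. Of the 4 epithelial markers, KRT8 and KRT18 rose in both lines, and the summed normalized count of the list went from 5814 to 6413 in siNT to 7648 to 7880.0 in siPHF19 for MDA-MB-436, and, for BoM-1833, from 16057 to 17595 in siNT to 24670.1 to 25874 in siPHF19. KRT8 and KRT18 make up nearly all of these sums. EPCAM was not called in either line; in BoM-1833 it had 138, 109 and 114 in siNT against 85.4, 101.4 and 90.1 in siPHF19, lower without overlap (authors' deposited log2 fold change -0.39, DESeq2 adjusted p = 0.271). The defining epithelial marker CDH1 had a mean under 10 in every group but BoM-1833 siPHF19. In that group it had 4.97, 8.26 and 27.6, so 1 library raised the mean, and CDH1 was not tested in either line. Of the 3 mesenchymal markers, CD44 fell in MDA-MB-436 and VIM in BoM-1833, and the sum of the list went from 35495 to 38281 in siNT to 32435 to 34527 in siPHF19 for MDA-MB-436, and, for BoM-1833, from 86426 to 93203 in siNT to 78165 to 79742 in siPHF19. FN1 was not called in either line; in MDA-MB-436 it had 1360.0, 1872 and 2473 in siNT against 2866, 3003 and 2490.4 in siPHF19, higher without overlap (authors' deposited log2 fold change 0.55, DESeq2 adjusted p = 0.109), and in BoM-1833 its groups overlapped. The 4 markers of leukocytes, endothelium, fibroblasts and pericytes summed to 106 to 124 in MDA-MB-436 siNT and 153 to 173 in siPHF19, and to 745 to 950.2 and 1025 to 1124 in BoM-1833, COL1A1 being the 1 of the 4 that was called, higher in each line. Their part in the PRC1 results was not tested.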

How the data were processed

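RNA-seq of 4 groups with 3 libraries each was analysed from 1 table per cell line. Per the labels' protocols, libraries were stranded mRNA preparations. The submitters' processing notes name STAR, RSEM 1.3.1, DESeq2 1.46.0 and hg38, without the role of each; the annotation and strand setting are not given in the sources used here. The authors deposited, per library, a signal, that is, counts over 1 size factor for each library (the normalized counts of the text), and the log2 fold change, its standard error, the Wald statistic (a score), p-values and adjusted p-values of siPHF19 over siNT.

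The number of columns belonging to no sample was 0. Whole reads were recovered from the signal (all values whole within 0.01 reads). For the 12 replicate pairs, chi-square per degree of freedom was 2.11 to 20.0, where sampling noise gives 1, so each library was counted once. A gene was called at a deposited adjusted p under 0.05; genes without one were not tested. The difference between lines was a z test, 2-sided, adjusted by Benjamini-Hochberg over 12290 genes. The 95% intervals are normal intervals of the deposited values. RPKM used GENCODE 29 exonic lengths (GRCh38). Alternatives used R 4.3.3 with DESeq2 1.42.0, edgeR 4.0.16 and limma 3.58.1 on recovered reads, and the fits were tested on simulated data. Reads carry no molecular identifiers.

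The members and lists were chosen with earlier results of these data known. Named genes were all 9 members; of the 4 other lists, genes with calls of equal direction in each line and the 3 called genes with the largest change per line; the 3 genes with the highest r to BMI1; PHF19; and the markers. RYBP, PCGF6, HDAC2 and MBD6, named to complete counts, and COMMD3 and COMMD3-BMI1 were chosen after their values were seen.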

Additional observations from a re-analysis of the deposited data

Results flagged for a closer look

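The response of CBX6 to siPHF19 differed between the lines by a test of the difference itself, at -0.49 on the log2 scale (BoM-1833 minus MDA-MB-436, z test adjusted p = 2.01e-04 over all genes tested in both). CBX6 was higher after siPHF19 in 3 of 3 libraries than in any siNT library in each line, by 0.62 for MDA-MB-436 and 0.13 for BoM-1833 per the authors' deposited table. Without any 1 of the 12 libraries the difference lay between -0.52 and -0.45 and kept an adjusted p of at most 0.0145. No cause was tested.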

How the results depend on the processing

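CBX6 and BMI1 in MDA-MB-436 kept their direction and call under every alternative run, as did the CBX6 difference between lines. The number of members called in MDA-MB-436 was 4 at an adjusted p under 0.1 and 2 to 5 without 1 library. In BoM-1833 it was 0 with edgeR (TMM or RLE), limma at each pseudocount, the replicate block, COMMD3-BMI1 added or an adjusted p under 0.01, and 0 to 1 without 1 library; the 2 libraries whose removal ended the BMI1 call were siPHF19 replicates 1 and 2. BMI1 in BoM-1833 had log2 fold changes and adjusted p-values of 0.32 (0.0610) in edgeR with TMM, 0.32 (0.0597) with RLE, 0.33 (0.0554, 0.0560 and 0.0538) in limma with pseudocounts of 1, 0.5 and 5, 0.20 to 0.41 without 1 library, and, with COMMD3-BMI1 added, 0.12 (0.286) in DESeq2, 0.12 (0.228) in edgeR and 0.10, 0.17, 0.090, 0.13, 0.12 and 0.11 without each library in turn; at the stricter threshold its 0.32 was not called. Without 1 library, list genes called were 4 to 15 for MDA-MB-436 and 0 to 5 for BoM-1833, and 0 in BoM-1833 at an adjusted p under 0.01, where 2080 and 919 genes were called in all. Over all genes, leaving out 1 library gave 1767 to 3801 calls for MDA-MB-436 against 3143, and 746 to 2046 for BoM-1833 against 1411. Members that differ between lines numbered 1 to 2 without 1 library.

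Same-numbered siNT and siPHF19 libraries did not deviate together (correlations of -0.27 to 0.04 for MDA-MB-436, -0.31 to -0.12 for BoM-1833), so the numbers were not taken to pair them. With the replicate number as a block, 1610 genes were called in MDA-MB-436 in place of 3143 and 610 in BoM-1833 in place of 1411; members called were 2 and 0, list genes 4 and 0. BMI1 in BoM-1833 was then 0.33 (0.0695), or 0.12 (0.678) with COMMD3-BMI1 added, and CBX2 was -0.00048.

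Some values near 0, none called, changed sign. CBX2 in BoM-1833 was -0.00032, -0.00033 and -0.00019 in limma. Without 1 library, CBX2 ranged from -0.070 to 0.054 for MDA-MB-436 and -0.070 to 0.12 for BoM-1833, its difference between lines from -0.063 to 0.13, and in BoM-1833 CBX7 from -0.081 to 0.057, PCGF2 from -0.024 to 0.048, RNF2 from -0.090 to 0.0055 and PHC2 from -0.036 to 0.038. The siNT shares moved with the length used. With coding length, CBX6, BMI1 and RNF2 held 55.7%, 64.6% and 80.7% in MDA-MB-436 and 64.9%, 57.1% and 33.8% in BoM-1833. Without a length correction CBX6 held 55.9% and 68.4%, RNF2 77.6% and 29.7%, and BMI1 63.3% in MDA-MB-436. The longest transcript put RNF2 at 17.0% in BoM-1833, and COMMD3-BMI1 added put BMI1 at 66.1% and 60.1%. The cause of these changes was not tested. Depth limits CBX8 and CBX7 most.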
